A study of Mus musculus with 29 samples.

Results

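The genes described here are Myc, Mycn, their partner Max and 31 genes of ribosome biogenesis, 34 of the 55376 gene symbols counted in hematopoietic stem cells (HSCs). They were taken by name. 34 of 34 passed the filter on low counts and stand among the 33690 genes tested. Their raw counts lay between 708 and 70066 reads in a library, so counting error is small beside the spread between libraries.

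Ribosomes are assembled in the nucleolus. RNA polymerase I transcribes the precursor ribosomal RNA, small nucleolar ribonucleoproteins (snoRNPs) modify it, and processing factors cut it and build the small and the large subunit around it. Myc, a transcription factor that binds DNA as a dimer with Max, is known to drive many of these genes, and quiescent HSCs are known for a low rate of protein synthesis. Mycn is a close relative of Myc that HSCs also express.

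RNA-seq was available for HSCs sorted as Lin-cKit+Sca1+CD34-Flk2-CD150+ cells from young wild-type mice (YWT, 4 libraries), old wild-type mice (OWT, 4 libraries), young Gadd45b knockout mice (YKO, 4 libraries) and old Gadd45b knockout mice (OKO, 7 libraries). The libraries were made with the SMART-Seq v4 kit, the knockout mice come from 1 line, the labels give no age beyond young and old, and the comparisons ask how age and loss of Gadd45b bear on HSC expression. Titles of all OWT libraries and of OKO4 to OKO7 carry a run prefix that YWT, YKO and OKO1 to OKO3 lack, and the study's read summary places these sets in different batches, so age in wild-type HSCs and run cannot be told apart. Nothing in the labels ties a library to a single mouse, so p-values measure the spread between libraries.

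Between 22197555 and 77970627 reads were counted per library. Gadd45b did not separate YKO from YWT (5.14 to 14.3 CPM against 7.34 to 17.5 CPM), whereas it was lower in each OKO library than in each OWT library (2.84 to 6.94 CPM against 10.1 to 15.5 CPM). In YKO1 to YKO4 it had 12.7, 14.3, 5.98 and 5.14 CPM, so YKO3 and YKO4 lay below every YWT library while YKO1 and YKO2 lay within the YWT range. The young knockout libraries are therefore called the libraries labelled YKO, and every direction drawn from them rests on that label. The labels give female for all 19 libraries, while Y-linked genes passed 1 CPM in 2 YWT, 1 OWT, 2 YKO and 2 OKO libraries, and no fit with a sex term was run. None of the 10 HSC markers was under 1 CPM throughout a group. OKO1 stood apart, with 27972 genes over 1 CPM against 15296 to 20579 in the other libraries. Its TMM scaling factor was 1.83, followed by OKO3 with a factor of 1.41 and OKO2 with 1.24. YWT2 had the lowest factor of the 19 libraries, 0.692.

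The hexamer CACGTG is the sequence that Myc-Max dimers are known to bind best, so it was searched for in promoter windows from RefSeq on GRCm38.p6 (mm10), each with 250 bases before the annotated start of a gene and 50 after it. A window was found for 29 of the 34 genes, and 7 of these 29 held the hexamer (Nop2, Max, Rrn3, Pes1, Utp4, Utp20 and Wdr43), which reads the same on both strands. That is 24.1% of the genes with a window, beside 8.09% of all 27025 genes with a window and 13.2% of the 5894 such genes whose mean level was at least that of the lowest of the 34. No window was found for Myc, Npm1, Fbl, Rrp12 and Bop1. The sequences around the hexamer are given for 4 genes that the results below return to, on the strand of the gene and with CACGTG in capitals. In Nop2 it began 60 bases before the start (chr6:125131811-125131840, plus strand), in Max 3 bases before it (chr12:76962234-76962263, minus strand), in Pes1 at base 3 of the transcript (chr11:3963965-3963994, plus strand) and in Rrn3 at 215 and 48 bases before the start (chr16:13780472-13780501 and chr16:13780639-13780668, plus strand).
Nop2: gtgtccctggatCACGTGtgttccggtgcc
Max: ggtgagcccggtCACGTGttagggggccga
Pes1: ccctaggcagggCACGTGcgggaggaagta
Rrn3, distal: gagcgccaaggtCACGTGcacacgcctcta
Rrn3, proximal: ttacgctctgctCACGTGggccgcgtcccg
A match is a run of letters and not a measured binding site. In OKO vs YKO, the median log2 fold change was -0.57 for the 7 genes with the hexamer and -0.53 for the 22 without it, and in YKO vs YWT it was 0.45 and 0.32.

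Per kilobase of exon, Npm1, a nucleolar chaperone, was the highest of the 34 genes in YWT at 211 ± 54.4 CPM per kb (SD, n = 4), followed by Myc at 143 ± 23.9 and by Noc2l, a factor of the large subunit, at 128 ± 20.8. Npm1 has processed pseudogenes that can share its reads, and 20.9% of the exon bases of Noc2l overlap Samd11 on the other strand, so both levels carry extra uncertainty. Below Nhp2, a box H/ACA snoRNP protein, stood Mycn at 97.2 ± 9.34 CPM per kb, and Max was far lower at 8.35 ± 1.30. The lowest levels were those of Polr1a, the largest subunit of RNA polymerase I, at 6.17 ± 1.11, and of Utp20, a small-subunit factor, at 4.89 ± 1.06. For each of the 33 pairs of neighbours in this order, the ranges of the 4 YWT libraries overlapped. Near genes are therefore not firmly ordered. The order also depends on the divisor, all annotated exon bases of a gene merged, which can exceed the transcript that is expressed. The divisor was 10188 bases for Ncl and 2665 for Npm1. By CPM alone Ncl lay above Npm1 in YWT, at 933 against 563 CPM, while per kilobase it stood at rank 6.

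**Figure D1:**
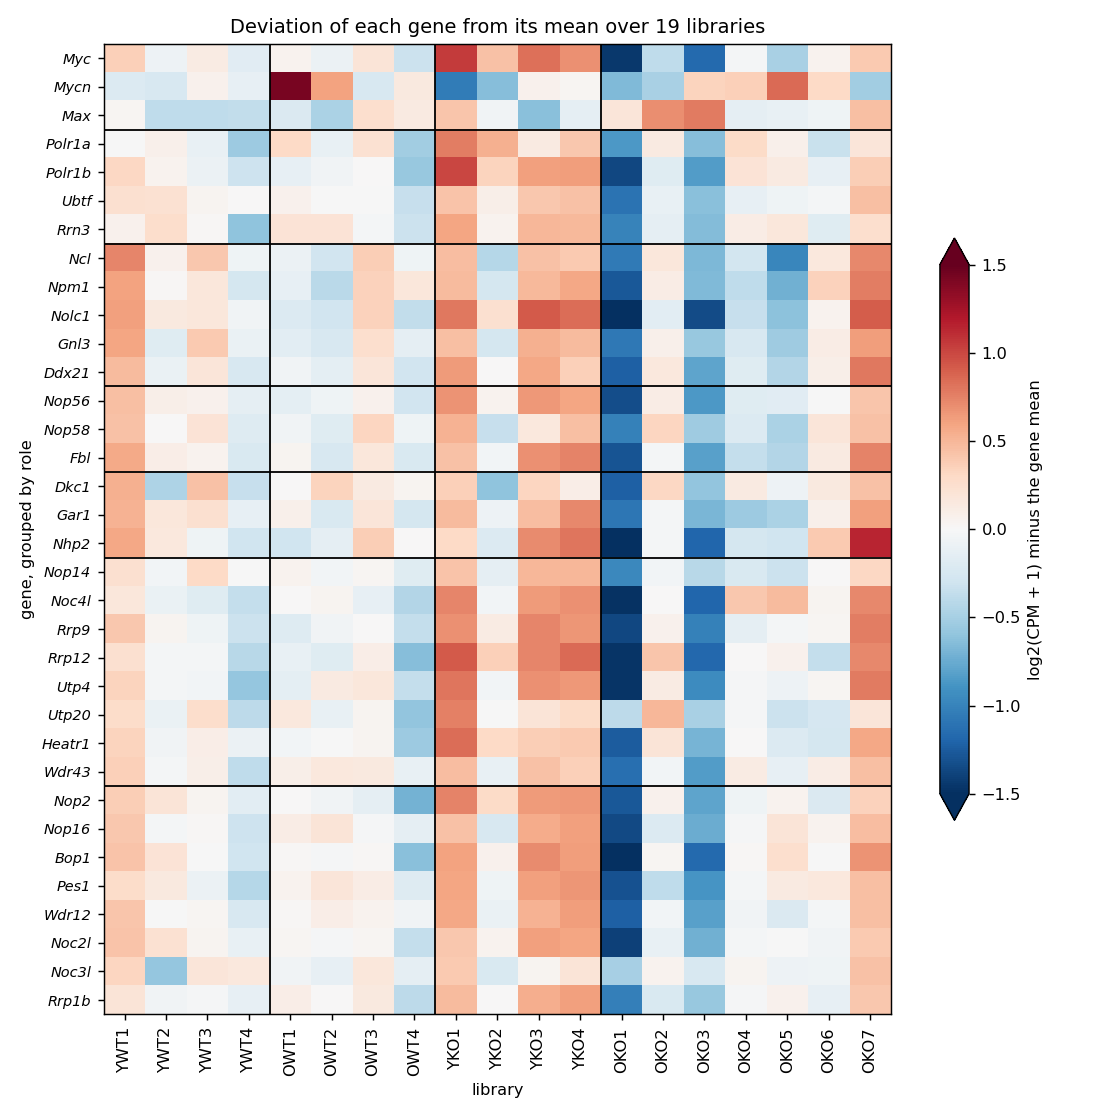
Deviation of log2(CPM + 1) from the mean of each gene over 19 libraries, with genes in rows grouped by role and libraries in columns grouped by age and genotype. Most genes are blue in OKO1 and OKO3 and red in YKO1, YKO3, YKO4 and OKO7, while Mycn and Max in the top block depart from this pattern.

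Myc (chromosome 15, 61985391 to 61990374, mm10) had normalised levels of 475, 351, 404 and 329 CPM in YWT and of 384, 349, 425 and 296 CPM in OWT. In the libraries labelled YKO it had 767, 502, 661 and 599 CPM. In OKO1 to OKO7 it had 135, 286, 165, 365, 264, 385 and 486 CPM. Every library labelled YKO lay above every YWT library and every OKO library, and YWT, OWT and OKO overlapped one another. Relative to the libraries labelled YKO, Myc fell by 1.09 on the log2 scale in OKO (standard error 0.27, 95% interval -1.61 to -0.56), and its adjusted p was 0.0449 (edgeR quasi-likelihood test, Benjamini-Hochberg over all genes). This was the single gene of the 34 that passed the thresholds of adjusted p under 0.05 and fold change over 1.5 in OKO vs YKO, where 1.29% of all genes tested did, and 0.692% in the lower direction. It was also the only one of the 34 whose groups did not overlap. This held in that direction for 1.48% of all genes tested and for 3.31% of the 7498 genes whose mean level was at least that of the lowest of the 34. A count of 1 in 34 is near the latter share. An exact two-sided permutation test on the 7 and 4 libraries gave p = 0.00606, the smallest that this design allows, and 0.242 after Benjamini-Hochberg adjustment over the 136 tests of the 34 genes in 4 comparisons.

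The call on Myc stood close to its threshold. With each library left out in turn, the log2 fold change in OKO vs YKO stayed between -1.24 and -0.96 and the edgeR adjusted p between 0.00895 and 0.190, with a call in 8 of 19 fits. The adjusted p was 0.190 without YKO1, 0.105 without YKO3 and 0.0747 without YKO4. It was 0.0844 without OKO3 and 0.0321 without OKO1. On library totals alone, with no TMM factor, Myc lay at 481 to 649 CPM in the libraries labelled YKO and at 226 to 385 CPM in OKO, again with no overlap, and the log2 fold change was -0.88 (edgeR adjusted p = 0.0210).

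In YKO vs YWT, the log2 fold change of Myc was 0.70 (standard error 0.31, 95% interval 0.09 to 1.31) with an adjusted p of 1.00 in edgeR, so it did not pass the test. The exact two-sided permutation p for 4 against 4 libraries was 0.0286, the smallest that this design allows. In OWT vs YWT the log2 fold change of Myc was -0.10 (standard error 0.31), and in OKO vs OWT it was -0.29 (standard error 0.27), and neither passed the test. The genotype by age interaction of Myc was -0.99 (standard error 0.41) with an adjusted p of 0.811 in edgeR, so the difference between the genotypes in the change with age was not shown.

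**Figure D2:**
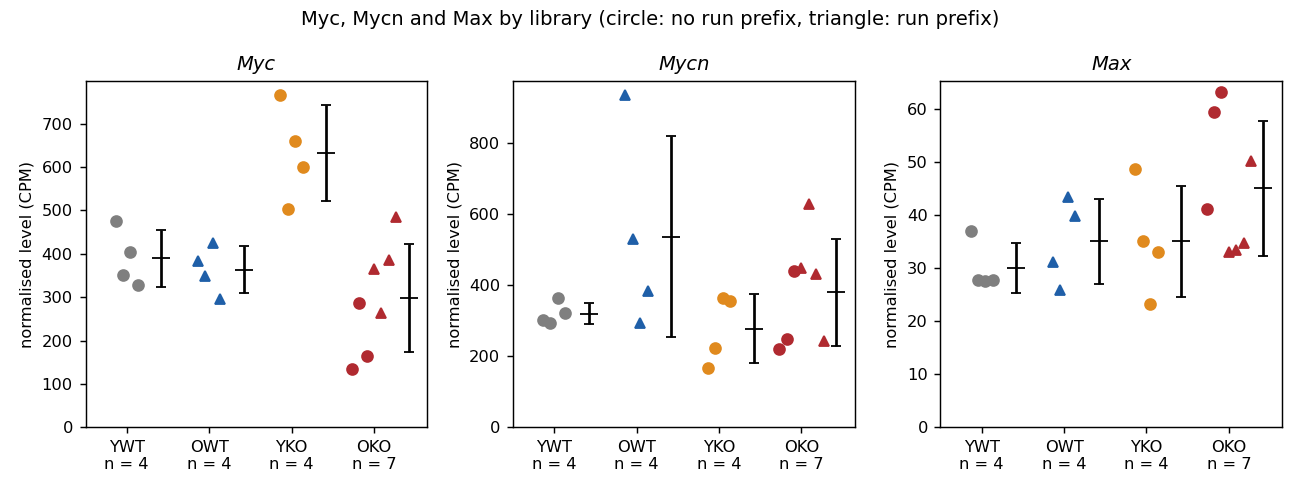
Normalised levels in CPM of Myc, Mycn and Max in each library by group, with circles for libraries without and triangles for libraries with the run prefix, and with the mean ± SD beside each group. The 4 libraries labelled YKO lie at 502 to 767 CPM for Myc, above all 15 others, while the groups overlap for Mycn and for Max.

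Mycn (chromosome 12, 12936093 to 12941914) passed the test in no comparison. Its levels were 302, 294, 363 and 321 CPM in YWT, 936, 531, 294 and 385 CPM in OWT, and 168, 223, 364 and 357 CPM in the libraries labelled YKO. In OKO1 to OKO7 they were 219, 248, 441, 448, 629, 430.4 and 243 CPM. OWT1 was the highest of the 19 libraries and YKO1, the library with the most Myc, was the lowest. In OWT vs YWT, Mycn had a log2 fold change of 0.74 (SE 0.36, adjusted p in edgeR = 1.00), which was 0.34 without OWT1. In OKO vs YKO it was 0.45 (SE 0.32, adjusted p in edgeR = 0.511), and in YKO vs YWT -0.20 (SE 0.36, adjusted p in edgeR = 1.00). In OKO vs OWT it was -0.50 (SE 0.31, adjusted p in edgeR = 0.601), on the same side of 0 as Myc. No difference between Mycn and Myc was tested.

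Set side by side per kilobase of exon, the ratio of Mycn to Myc was 0.52, 0.69, 0.74 and 0.81 in YWT and 0.18, 0.37, 0.45 and 0.49 in the libraries labelled YKO. It was 2.01, 1.26, 0.57 and 1.07 in OWT. In OKO1 to OKO7 it was 1.34, 0.72, 2.21, 1.01, 1.97, 0.92 and 0.41. Mycn thus exceeded Myc in 3 of 4 OWT and 4 of 7 OKO libraries and in 0 of the 8 young ones. This ratio was chosen after the values were seen and was not tested, and within each genotype the young libraries lack the run prefix while all or most of the old ones carry it.

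Max (chromosome 12, 76937269 to 76962201), the obligate partner of Myc and Mycn, had 37.0, 27.7, 27.6 and 27.9 CPM in YWT and 31.2, 25.9, 43.4 and 39.9 CPM in OWT. It had 48.8, 35.0, 23.2 and 33.1 CPM in the libraries labelled YKO and 41.2, 59.5, 63.3, 33.0, 33.5, 34.7 and 50.1 CPM in OKO1 to OKO7. The groups overlapped in each comparison. Its log2 fold change in OKO vs YKO was 0.36 (standard error 0.23, edgeR adjusted p = 0.452), and OKO2 and OKO3 held its highest levels.

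In YKO vs YWT, 31 of the 34 genes had a fitted log2 fold change above 0, with a median of 0.34. Over all genes tested, 48.1% were above 0 with a median of -0.02, and over the 7498 genes whose mean level was at least that of the lowest of the 34, 59.8% were above 0 with a median of 0.07. No gene of the 34 passed the thresholds (0 of 34, beside 0.0267% of all genes), in edgeR or in DESeq2. 4 of them had an unadjusted p under 0.05, all in the higher direction (1.91% of all genes and 2.29% of those 7498), and these were the same 4 whose groups did not overlap (2.12% and 4.96%): Myc, Polr1a, Polr1b and Rrp12. Polr1a and Polr1b are the 2 large catalytic subunits of RNA polymerase I, and Rrp12 acts in maturation of the small subunit.

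Polr1b (chromosome 2, 129100995 to 129126594) had 165, 138, 125 and 107 CPM in YWT and 266, 168, 204 and 205 CPM in the libraries labelled YKO. The fitted difference was 0.65 on the log2 scale (standard error 0.29, edgeR adjusted p = 1.00). Polr1a had 54.5 to 84.5 CPM in YWT and 88.0 to 137 CPM in the libraries labelled YKO, and Rrp12 had 53.6 to 85.6 and 92.9 to 138 CPM. The median log2 fold change by role was 0.53 for the 4 genes of the RNA polymerase I machinery, 0.47 for 8 small-subunit and 0.40 for 8 large-subunit factors, 0.34 for the 3 box C/D snoRNP proteins, which guide methylation of ribosomal RNA, 0.21 for the 3 box H/ACA snoRNP proteins, which guide pseudouridylation, and 0.19 for 5 nucleolar chaperones and helicases. Ncl, Dkc1 and Mycn were the 3 genes below 0, at -0.06, -0.02 and -0.20.

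The libraries labelled YKO did not move as 1 group. The mean deviation of the 34 genes from their means over all libraries was 0.55, 0.48 and 0.52 on the log2 scale in YKO1, YKO3 and YKO4 and -0.03 in YKO2, inside the YWT range of -0.24 to 0.36. The 30 cell cycle genes deviated by 0.28 in YKO2 and by 0.84 to 0.92 in the other 3, against -0.05 to 0.69 in YWT. In YKO vs YWT, 28 of the 30 cell cycle genes, 10 of 10 B cell markers, 9 of 10 T and NK cell markers and 10 of 10 erythroid markers also had fitted values above 0, with 0, 0, 0 and 1 called. Of the 10 HSC markers, 9 had fitted values below 0, with a median of -0.39, 0 called and 1 at an unadjusted p under 0.05. Their summed level was 2064 to 2703 CPM in the libraries labelled YKO and 2374 to 3115 CPM in YWT. T and NK cell markers summed to 83.3 to 211 CPM in the libraries labelled YKO and 46.7 to 78.8 CPM in YWT, with no overlap between the groups. For B cell markers the sums were 203 to 1537 and 227 to 681 CPM. Granulocyte and monocyte markers summed to 100 to 334 CPM in the libraries labelled YKO and 241 to 426 CPM in YWT. For megakaryocyte markers the sums were 752 to 1459 and 983 to 1248 CPM. Plasma cell markers summed to 760 to 13792 CPM in the libraries labelled YKO and 1333 to 27068 CPM in YWT, where the median was 1820 CPM. The summed erythroid level was 2541 to 7048 CPM in the libraries labelled YKO and 1851 to 3960.4 CPM in YWT, and the part of the cell cycle genes and these markers in the values of the 34 genes was not tested. In bulk HSC samples, fewer cells with a high level and less RNA per cell cannot be told apart.

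**Figure D3:**
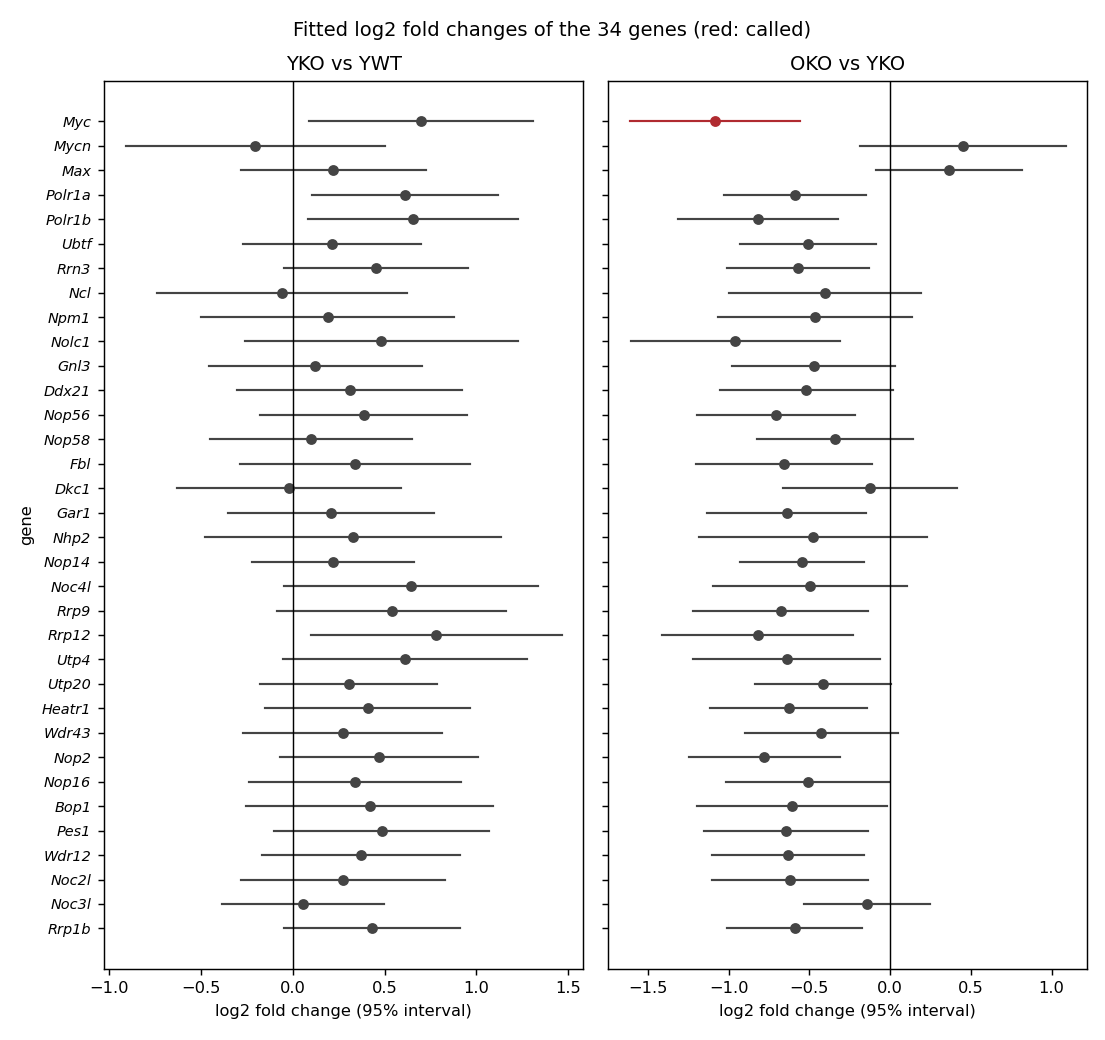
Fitted log2 fold changes of the 34 genes with 95% intervals in YKO vs YWT and in OKO vs YKO, in the same gene order, with red for a called gene. Of the 34, 31 lie above 0 on the left and 32 below 0 on the right, and Myc on the right is the single called gene. Both comparisons use the libraries labelled YKO, so the panels are not independent.

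In OKO vs YKO, 32 of the 34 genes had a fitted log2 fold change below 0, with a median of -0.58, and Mycn and Max were the 2 above 0. Over all genes tested the median was 0.23 with 38.2% below 0, and over the 7498 genes at or above the lowest of the 34 it was -0.24 with 73.8% below 0. 19 of the 34 had an unadjusted p under 0.05, all in the lower direction, against 7.93% of all genes and 20.1% of those 7498. Apart from Myc, none of them passed the adjusted threshold in edgeR with all 19 libraries. This count moved with the libraries. Without OKO7, 13 of the 34 fell, among them Nop2, Polr1b, Nolc1, Nop56, Gar1 and Nop14, where 3.25% of all genes were called lower, and without each other library in turn 0 or 1 was called. DESeq2 called 5 (3.78% of all genes in that direction), a filter at a mean CPM of 5 gave 3 (3.17%), and the replicate number as a block gave 8 (2.66%). The shares beside these counts are over all genes and not at the level of the 34. The comparison shares the libraries labelled YKO with YKO vs YWT, so the values of both are given side by side and not as separate support.

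By role, the median log2 fold change in OKO vs YKO was -0.58 for the RNA polymerase I machinery, where 4 of 4 genes had an unadjusted p under 0.05, -0.66 for box C/D and -0.48 for box H/ACA snoRNP proteins, -0.59 for small-subunit and -0.61 for large-subunit factors and -0.47 for nucleolar chaperones and helicases. The values nearest to 0 among these were -0.12 for Dkc1, the pseudouridine synthase of box H/ACA snoRNPs, and -0.14 for Noc3l. The gene with the smallest p in each role is given below with its value in each library.

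Nop2 (chromosome 6, 125131909 to 125144753), a methyltransferase of large-subunit ribosomal RNA, had 237, 173, 219.6 and 222 CPM in the libraries labelled YKO and 57.6, 148, 81.1, 135, 146, 121 and 179 CPM in OKO1 to OKO7. It had 183, 161, 145 and 127 CPM in YWT and 141, 136, 128 and 86.0 CPM in OWT. All OKO libraries but OKO7 lay below the libraries labelled YKO, and the log2 fold change was -0.78 (standard error 0.24, edgeR adjusted p = 0.108). Polr1b showed the same arrangement, with 50.8, 117, 74.0, 153, 146, 122 and 172 CPM in OKO1 to OKO7 and 122, 128, 134 and 88.9 CPM in OWT. Its log2 fold change was -0.82 (standard error 0.25, edgeR adjusted p = 0.110).

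Nolc1 (chromosome 19, 46075863 to 46085530), a chaperone of snoRNPs in the nucleolus, had 294, 201, 321 and 305 CPM in the libraries labelled YKO and 54.0, 152, 66.5, 133, 110.1, 176 and 318 CPM in OKO1 to OKO7. It had 260.2, 188, 191 and 163 CPM in YWT and 147, 139, 216 and 131 CPM in OWT. OKO7 lay at the level of YKO3 and YKO4, while OKO1 and OKO3 were the lowest of the 19 libraries. The log2 fold change was -0.96 (standard error 0.33, edgeR adjusted p = 0.152).

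Nop56, a core protein of box C/D snoRNPs, had 442, 287, 434 and 417 CPM in the libraries labelled YKO and 109, 299.6, 152, 244, 245, 276 and 369 CPM in OKO1 to OKO7. In YWT it had 377, 293, 289.9 and 251 CPM, and in OWT 249.6, 263, 290.0 and 226 CPM. Its log2 fold change in OKO vs YKO was -0.71 (standard error 0.25, edgeR adjusted p = 0.161). Here OKO2 and OKO7 reached into the range of the libraries labelled YKO, of which YKO2 was the lowest.

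Gar1, a core protein of box H/ACA snoRNPs, had 81.3, 55.1, 81.0 and 96.6 CPM in the libraries labelled YKO and 26.9, 57.1, 35.7, 39.7, 41.6, 61.8 and 89.9 CPM in OKO1 to OKO7. In YWT it had 84.2, 65.8, 68.8 and 53.2 CPM, and in OWT 61.4, 49.6, 66.0 and 48.2 CPM. Its log2 fold change in OKO vs YKO was -0.64 (standard error 0.25, edgeR adjusted p = 0.207). Nop14, a small-subunit factor, had 76.9, 51.6, 80.6 and 80.5 CPM in the libraries labelled YKO and 28.6, 55.3, 42.4, 48.4, 45.0, 57.2 and 70.6 CPM in OKO1 to OKO7. In YWT it had 67.2, 55.0, 70.0 and 56.5 CPM, and in OWT 59.1, 54.9, 57.9 and 50.1 CPM. Its log2 fold change in OKO vs YKO was -0.54 (standard error 0.20, edgeR adjusted p = 0.170). For both genes, 3 OKO libraries (OKO2, OKO6 and OKO7) lay within the range of the libraries labelled YKO.

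The OKO libraries spread widely. OKO1 was the lowest of the 19 libraries for 30 of the 34 genes, OKO1 and OKO3 were among the lowest 2 for 32 and 28 genes, and OKO7 was the highest library for 8 of them. The mean deviation of the 34 genes was -1.16 in OKO1, -0.71 in OKO3, between -0.14 and 0.03 in OKO2, OKO4, OKO5 and OKO6, and 0.51 in OKO7. The 30 cell cycle genes deviated by -1.85 in OKO1, -2.18 in OKO3 and 0.81 in OKO7. On library totals alone, OKO1 deviated by -0.30 and OKO3 by -0.22, within the range of the other libraries (-0.53 in YWT2 to 0.42). OKO1 was then the lowest library for 6 of the 34 genes, and YWT2 and OKO5 for 8 each. The median log2 fold change of the 34 genes in OKO vs YKO was then -0.34, while that of all genes moved to 0.63.

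**Figure D4:**
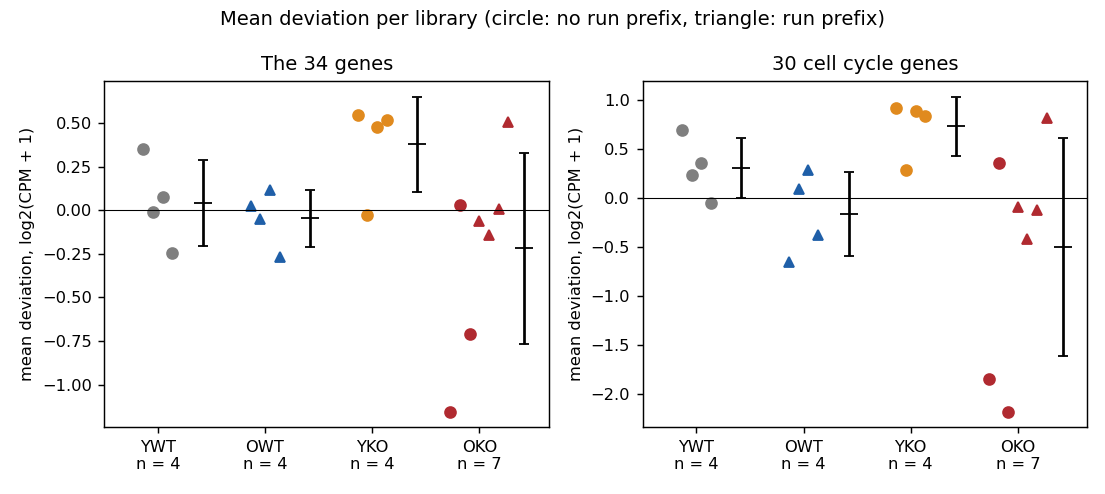
Mean deviation per library of log2(CPM + 1), averaged over the 34 genes (left) and over 30 cell cycle genes (right), by group, with circles for libraries without and triangles for libraries with the run prefix and with the mean ± SD beside each group. OKO1 and OKO3 are the lowest libraries in both panels, and 3 of the 4 libraries labelled YKO together with OKO7 are the highest.

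OKO vs YKO was also fitted by run. Among the libraries without the prefix, OKO1 to OKO3 against the libraries labelled YKO, the median of the 34 genes was -0.94, beside 0.54 over all genes. 32 of the 34 lay below 0, beside 36.6% of all genes and 82.8% of the 7498 genes at or above the lowest of the 34. 25 of the 34 were called lower, as were 11.6% of all genes and 40.1% of those 7498. These were 4 of 4 genes of the RNA polymerase I machinery, 7 of 8 small-subunit and 7 of 8 large-subunit factors, 2 of 3 proteins in each class of snoRNP, 2 of 5 nucleolar chaperones and helicases, and Myc. Myc fell by 1.63 on the log2 scale (edgeR adjusted p = 0.00144), Nolc1 by 1.56 (edgeR adjusted p = 0.00530), Polr1b by 1.32 (edgeR adjusted p = 0.00451), Pes1 by 1.24 (edgeR adjusted p = 0.00450) and Rrn3 by 0.92 (edgeR adjusted p = 0.0138). The groups did not overlap for 12 of the 34 (14.9% of all genes in that direction). The share among those 7498 genes is not given here for this count. With OKO4 to OKO7, which carry the prefix, in place of OKO1 to OKO3, 0 of the 34 passed (0.3% of all genes were called lower) and the median was -0.31 with 30 below 0 (50.8% of all genes and 50.6% of those 7498), and Myc was at -0.73 (edgeR adjusted p = 0.103). With OKO1 and OKO3 left out together, an alternative chosen after the data were seen, the median was -0.38 and Myc fell by 0.84 (edgeR adjusted p = 0.0410), the single call among the 34 (0.414% of all genes were called lower). Without these 2 libraries, 31 of the 34 still had fitted values below 0, beside 47.8% of all genes and 62.6% of those 7498. With the run prefix as a covariate, 25 of the 34 fell (10.7% of all genes) and Max rose (6.48% of all genes in that direction). These shares too are over all genes and not at the level of the 34.

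Markers of other cells also differed in OKO vs YKO, in both directions. 10 of 10 B cell markers, 8 of 10 T and NK cell markers and 10 of 10 erythroid markers had fitted values below 0, with 6, 2 and 5 of them called lower, and 1 T and NK cell marker was called higher. All 30 cell cycle genes were below 0, with a median of -0.95, 0 called and 19 at an unadjusted p under 0.05. The summed B cell level was 29.5 to 215 CPM in OKO and 203 to 1537 CPM in the libraries labelled YKO, and no B cell marker was at 0 in either group throughout. The summed erythroid level was 635 to 4797 CPM in OKO. Granulocyte and monocyte markers summed to 220 to 646 CPM in OKO and 100 to 334 CPM in the libraries labelled YKO. For megakaryocyte markers the sums were 634 to 2156 and 752 to 1459 CPM, and for plasma cell markers 126 to 4740 and 760 to 13792 CPM. The HSC markers lay the other way, with 9 of 10 above 0, a median of 0.55, 0 called and 4 at an unadjusted p under 0.05. Their summed level was 2161 to 3835 CPM in OKO, with OKO1 the lowest, OKO7 next at 2179 CPM and OKO4 the highest, and OKO3 at 2578 CPM. The part of these markers and of the cell cycle genes in the values of the 34 genes was not tested.

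In OWT vs YWT, 26 of the 34 genes had fitted values below 0 and 8 above 0, with a median of -0.14, beside -0.05 over all genes, 54.3% of which lay below 0, and 0.05 over the 7498 genes at or above the lowest of the 34, of which 41.3% lay below 0. 0 of the 34 passed the thresholds (0.00297% of all genes), 0 had an unadjusted p under 0.05 (4.38% of all genes) and for 0 the groups did not overlap (2.24% of all genes higher and 1.9% lower), and DESeq2 also called 0. The widest differences were that of Mycn, given above, and -0.34 for Nolc1. The HSC markers were above 0 for 10 of 10 genes with 0 called, and the cell cycle genes below 0 for 30 of 30 with 0 called. Granulocyte and monocyte markers summed to 624 to 918 CPM in OWT and 241 to 426 CPM in YWT. For T and NK cell markers the sums were 86.8 to 200 and 46.7 to 78.8 CPM. The other summed marker levels overlapped between OWT and YWT. All OWT libraries carry the run prefix and no YWT library does.

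In OKO vs OWT, 25 of the 34 genes had fitted values below 0 and 9 above 0, with a median of -0.11, beside 0.12 over all genes, 44.1% of which lay below 0, and -0.20 over the 7498 genes at or above the lowest of the 34, of which 89.7% lay below 0. 0 of the 34 passed the thresholds (0.0327% of all genes), and 0 had an unadjusted p under 0.05 (8.14% of all genes), and DESeq2 also called 0. The sign turned with the libraries used and with the scaling. Within the run that carries the prefix, OKO4 to OKO7 against OWT, 33 of the 34 lay above 0 with a median of 0.17 (54.7% of all genes and 58% of those 7498 lay above 0), 0 called (0.0434% of all genes were called higher) and 0 without overlap (0.795% of all genes in that direction). With OKO1 to OKO3 the median was -0.48 and Myc and Pes1 were called lower (7.75% of all genes and 28.8% of those 7498 were). On library totals alone the median was 0.10.

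**Figure D5:**
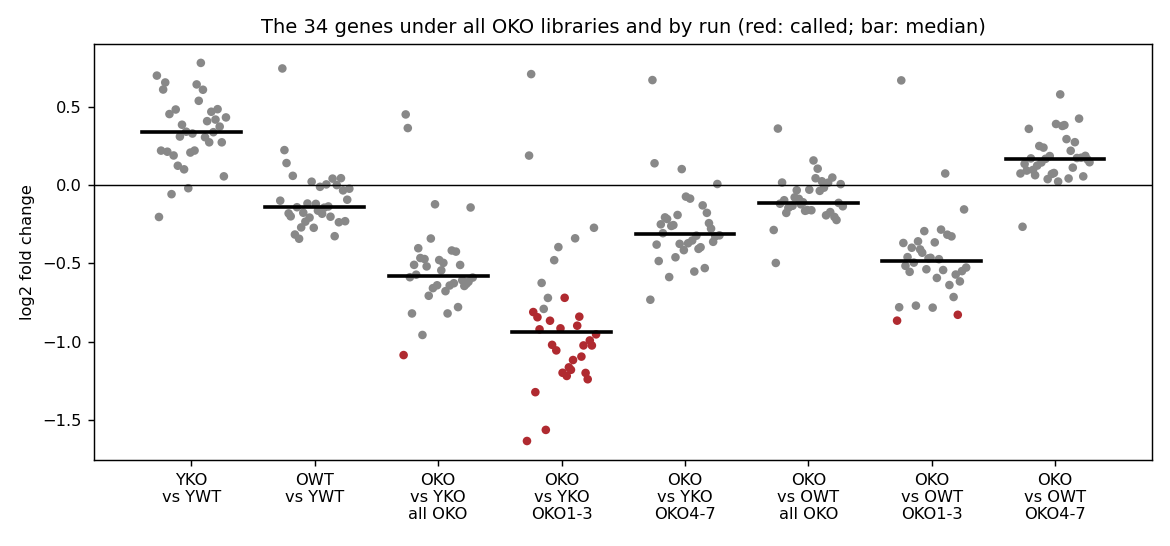
Log2 fold changes of the 34 genes, 1 point per gene, in 8 fits, with all OKO libraries, with OKO1 to OKO3 (no run prefix) and with OKO4 to OKO7 (run prefix), where red marks a called gene and the bar the median. The median in OKO vs YKO is -0.58, -0.94 and -0.31 in turn, and in OKO vs OWT it is -0.11, -0.48 and 0.17.

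The genotype by age interaction was below 0 for 33 of the 34 genes, with a median of -0.44, beside 0.18 over all genes, 42% of which lay below 0, and -0.28 over the 7498 genes at or above the lowest of the 34, of which 82.6% lay below 0. 0 of the 34 passed (0 of all genes did), and Myc and Polr1a had an unadjusted p under 0.05 in that direction (1.22% of all genes and 2.44% of those 7498). With OKO1 to OKO3 only, 1 of the 34 was called lower (0.279% of all genes). The interaction uses the libraries labelled YKO and the OWT libraries of the other run, and DESeq2 also called 0 of the 34.

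A wider list of 144 other genes of the same processes was counted in the same fits. In OKO vs YKO, 136 of 144 lay below 0, with a median of -0.43. The share below 0 was 38.2% of all genes and 73.8% of the 7498 genes used above. Of the 144, 52 had an unadjusted p under 0.05 in that direction, beside 7.93% of all genes and 20.1% of those 7498. In this comparison 1 of the 144 was called, a share near the 0.692% of all genes called lower. It was Tcof1, a nucleolar cofactor of RNA polymerase I, which fell by 0.88 on the log2 scale (standard error 0.20, edgeR adjusted p = 0.0308). Counts below 0 were 42 of 43 in the small subunit processome, 46 of 47 in large subunit assembly, 13 of 13 in snoRNP assembly and rRNA modification, 13 of 13 in the RNA exosome, which trims ribosomal RNA, 14 of 17 in RNA polymerase I subunits and factors and 8 of 11 in the Myc network. In YKO vs YWT, 127 of 144 lay above 0 (48.1% of all genes and 59.8% of those 7498) with a median of 0.21. Of these 144, 0 were called and 2 had an unadjusted p under 0.05, both higher (1.91% and 2.29%). In OWT vs YWT, 89 of 144 lay below 0 (54.3% of all genes and 41.3% of those 7498) with a median of -0.05. Here 0 were called and 0 had an unadjusted p under 0.05 (4.38% of all genes). In OKO vs OWT, 126 of 144 lay below 0 with a median of -0.13, beside 44.1% of all genes and 89.7% of those 7498. The count is thus near the share at that level. Here 0 were called and 2 had an unadjusted p under 0.05 (8.14% of all genes).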

How the data were processed

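RNA-seq of 19 HSC libraries was analysed, and 10 bisulfite samples were not used here. The authors trimmed reads, used STAR for alignment (mm10, GENCODE M22), and deposited raw featureCounts counts per gene symbol. Whether strand was used in counting is not given in the sources used here. Counts were filtered with filterByExpr and scaled by TMM in edgeR 4.0.16 (R 4.3.3), and the quasi-likelihood test used a single model of the 19 libraries with group means alone. Calls needed a fold change over 1.5 and a Benjamini-Hochberg adjusted p under 0.05 over all genes. Normalised levels are TMM-scaled CPM, with 1 added before logarithms. DESeq2 1.42.0 was an alternative, with others on scaling, filter, samples, run prefix, block and left-out libraries. Scripts were tested on simulated data. Positions and exon lengths come from GENCODE M21 on mm10. The genes and lists were chosen with earlier results of these data known. Values in each library are given for Myc, Mycn, Max, every called gene and the gene with the smallest p in each role. Of the wider list, called genes are named. Replicate numbers are shared between groups but did not pair the libraries, since correlations of same-numbered libraries ranged from -0.45 to 0.28.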

Additional observations from a re-analysis of the deposited data

Results flagged for a closer look

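Over 40 sets of values (9 genes and the mean deviation of the 34, in 4 groups), 4 held a library that stood far from the rest. Chance would give about 2 if the sets were independent. They are not, since the mean deviation includes the 9 genes and YKO2 was flagged more than once, so the count is not set against chance. YWT1 was high for Max, at 37.0 CPM against 27.6 to 27.9 CPM in the other YWT libraries. YKO2 was low for Nop56, at 287 CPM against 417 to 442 CPM in the other libraries labelled YKO, and for Nop14, at 51.6 CPM against 76.9 to 80.6 CPM. Its mean deviation over the 34 genes was -0.028, against 0.48 to 0.55 in the other 3. Without YKO2, the median log2 fold change of the 34 genes in YKO vs YWT was 0.49, with 0 called.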

How the results depend on the processing

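Over up to 31 other settings, 285 recomputed summaries were scored as unmoved and 23 as moved, as given below. Unmoved summaries could still change sign. The median of the 34 genes in OKO vs OWT, -0.11 in the main fit, was 0.10 on library totals. It was 0.13 with the prefix as a covariate, 0.17 with OKO4 to OKO7 and -0.48 with OKO1 to OKO3. Of the values of single genes, 1296 kept their direction and side of the threshold, 46 changed direction, 13 lost a call and 31 gained one. In OKO vs YKO the number of the 34 genes called was 1, and 5 with DESeq2 (3.78% of all genes called lower), 3 with a filter at a mean CPM of 5 (3.17%), 0 with the 2 compared groups only (0.236%), 26 with the run prefix as a covariate (25 lower, beside 10.7% of all genes, and Max higher, in effect OKO1 to OKO3 against the libraries labelled YKO), 25 with OKO1 to OKO3 only (11.6%), 0 with OKO4 to OKO7 only (0.3%), 8 with the replicate number as a block (2.66%), and between 0 and 13 with 1 library left out, 13 being without OKO7 (3.25%). The shares beside these counts are over all genes and not at the level of the 34. In the other comparisons the replicate block called 0 of the 34. The same numbers did not pair the libraries. With OKO1 to OKO3 only, OKO vs OWT gave 2 calls (7.75% of all genes called lower) and the interaction 1 (0.279%), with a median of -0.83. With the prefix as a covariate the median in OWT vs YWT was -0.78, and that of all genes was 0.31. Only OKO holds libraries of both runs, so the covariate was estimated from OKO1 to OKO3 against OKO4 to OKO7. The -0.78 is therefore not an age difference in wild-type HSCs freed of run. The other changes of direction were mostly in OKO vs OWT. There, DESeq2 and RLE size factors each gave Nop56 0.0053 (log2). Library totals gave Nolc1 0.011, Nop56 0.11, Gar1 0.049 and Nop14 0.078, and the filter at a mean CPM of 5 gave 0.031, 0.10, 0.048 and 0.061. The prefix as a covariate gave Myc 0.040, Nolc1 0.21, Nop56 0.13 and Gar1 0.044. OKO1 to OKO3 gave Polr1b -0.52 and Nop2 -0.33, and OKO4 to OKO7 gave Myc 0.074, Nolc1 0.25, Nop56 0.17, Gar1 0.077 and Nop14 0.022. The replicate block gave Polr1b -0.28 and Nop2 -0.24, and leaving out OKO1 and OKO3 gave Nolc1 0.17, Nop56 0.16 and Gar1 0.051. With 1 library left out, OKO vs OWT ranged from -0.45 to 0.055 for Nolc1, -0.22 to 0.045 for Nop56, -0.091 to 0.15 for Polr1b and -0.094 to 0.15 for Nop2. Myc in OWT vs YWT ranged from -0.18 to 0.0091, Max in YKO vs YWT from -0.0065 to 0.33 and the interaction of Mycn from -0.46 to 0.15. That of Mycn was 0.047 on library totals and 0.013 with the filter at 5 CPM, and that of Max was -0.10 with the prefix as a covariate and -0.087 with OKO4 to OKO7. The cause was not tested.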
